A study of Mus musculus with 21 samples.

Results

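Zbtb16, Tsc22d3, Klf9, Fkbp5, Sgk1, Ddit4, Pdk4, Mt1 and Mt2 are genes that glucocorticoids induce in many tissues. With the gene of the receptor itself, Nr3c1, they make up a set of 10 genes. They were followed in mouse muscle stem cells and chosen by symbol, not by a threshold on measured values. The choice was made with earlier results of these data known. Each of the 10 genes has 1 probeset with a single gene symbol on the array, out of 19938 genes named in that way, and all 10 were among the 13956 genes bright enough to be tested.

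The study asked how an injury elsewhere in the body alters resting muscle stem cells, and whether mTORC1 and the HGF receptor cMet take part. All mice were 3 to 5 months old and carried 1 Pax7CreER allele and 1 Rosa26REYFP allele, WT included. Tamoxifen was given at least 2 weeks before the cells were isolated, so that Cre acted in cells expressing Pax7 and YFP marked the recombined cells, which were sorted from hindlimb muscle. Quiescent satellite cells (QSC) came from noninjured mice. Contralateral satellite cells (CSC) came from the hindlimb opposite to muscle injured with BaCl2, taken 2.5 or 28 days after the injury. Gene deletion depended on the same Cre, and the knockout alleles were TSC1flox/flox, Rptrflox/flox (Rptor KO) or cMetflox/flox. The strain was mixed C57BL6, and C57BL6 mixed with FVB for the cMet KO mice. WT QSC and WT CSC at 2.5 days had 3 pools each. The other 6 groups had 1 pool each, namely QSC and CSC at 2.5 days of the cMet KO, QSC and CSC at 2.5 days of the Rptor KO, TSC1 KO QSC, and WT CSC at 28 days. A pool held cells of 3 to 4 mice, and 21 arrays were made of the 12 pools from 100 ng of RNA each.

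Glucocorticoids such as corticosterone cross the cell membrane and bind the glucocorticoid receptor, which chaperones hold in the cytoplasm. The bound receptor enters the nucleus and activates genes near glucocorticoid response elements, among them inhibitors of its own signalling. In skeletal muscle the hormone is known for slowing protein synthesis, promoting protein breakdown and shifting fuel use away from glucose.

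Values are log2 probeset signals made with RMA, which corrects background, normalises arrays and summarises probes. Arrays of a pool were averaged, and differences are given on the log2 scale with the standard error (SE) of limma's fit across all tested genes. A gene was called where the p adjusted by the Benjamini-Hochberg method over the 13956 genes was under 0.05. The small number of pools limits the precision: the median SE over genes was 0.154 for WT CSC at 2.5 days against WT QSC and 0.218 for a single pool against WT QSC. A single pool has no spread of its own and was assumed to vary like the WT pools. An effect of its genotype or time point and a chance property of that pool cannot be told apart. Where cMet KO pools are set against WT pools, the strain differs too, and its effect cannot be told apart from that of the genotype. Levels of Tsc1, Rptor and Met check no genotype label, since their probesets cover whole transcripts and are not limited to the floxed exons. Tsc1 measured 8.16 in the TSC1 KO QSC pool, against 8.34 to 8.69 in WT QSC. Rptor measured 9.19 in Rptor KO QSC, against 8.91 to 9.58 in WT QSC, and 8.85 in Rptor KO CSC, below the 9.43 to 9.84 of WT CSC at 2.5 days. Met measured 10.25 in cMet KO QSC, against 9.93 to 10.11 in WT QSC, and 10.13 in cMet KO CSC, below the 10.63 to 10.94 of WT CSC at 2.5 days.

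At 2.5 days after injury of the opposite limb, Zbtb16, Tsc22d3 and Mt1 fell in WT CSC and none of the 10 genes rose. Over all tested genes, 18.0% were called in this comparison, and 7.36% were called lower. The 10 genes had a median difference of -0.49, against -0.05 for all tested genes, and 6 of them had an unadjusted p under 0.05, as did 32.0% of all tested genes. All 10 differences were below 0, as were 56.8% of those of all genes. For 7 of the 10, every WT CSC pool lay below every WT QSC pool, which 19.1% of all tested genes also showed. Fkbp5, Sgk1 and Ddit4 were the 3 whose pools overlapped. A lower signal in pooled cells can come from fewer cells with the transcript or from less of it per cell, and these cannot be told apart.

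**Figure D1:**
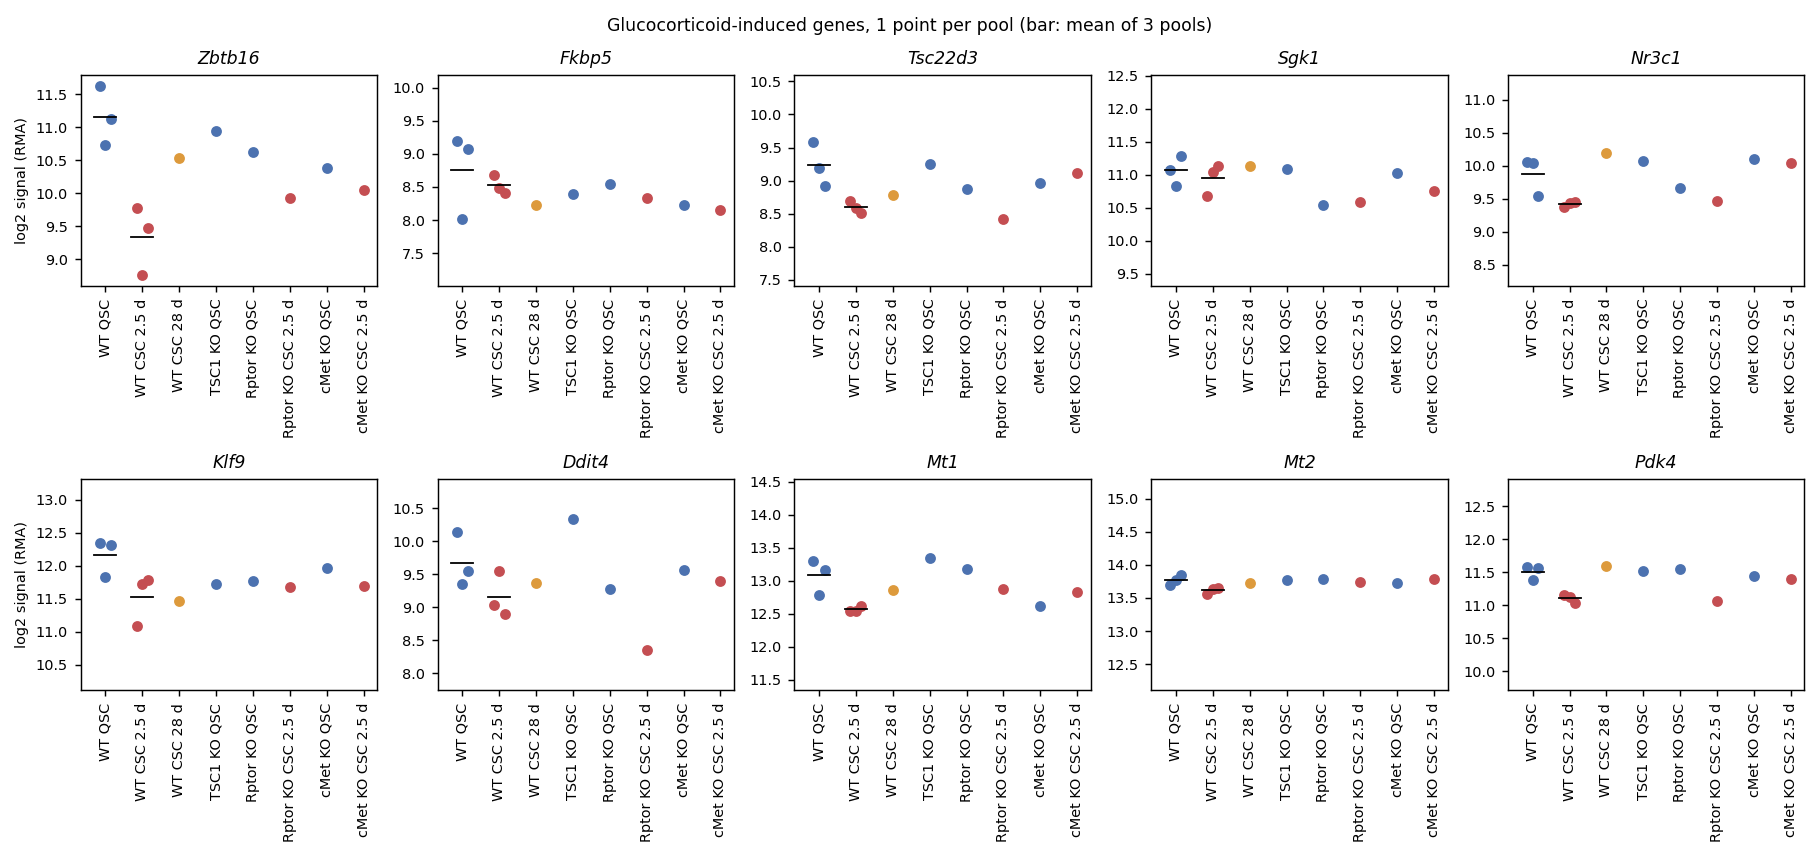
Log2 signal of the 10 genes (vertical axes, each spanning the same number of log2 units) in the 8 groups (horizontal axes), with 1 point per pool and a bar at the mean of 3 pools; blue marks QSC, red CSC at 2.5 days and orange CSC at 28 days. The WT CSC pools of Zbtb16 sit between 8.77 and 9.78, all below the WT QSC pools at 10.73 to 11.63.

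Zbtb16 encodes PLZF, a zinc finger transcriptional regulator of stem and progenitor cells and a gene that responds to glucocorticoids in many cell types. It measured 11.63, 10.73 and 11.12 in the 3 WT QSC pools and 9.78, 8.77 and 9.47 in the 3 WT CSC pools at 2.5 days. The 2 sets lay 0.95 apart at their nearest pools. The difference was -1.82 ± 0.29, a signal 3.54-fold lower (limma adjusted p = 0.00361), and the next in size among the 10 genes were Tsc22d3 and Klf9, both at -0.63. Its spread among pools was wide as well: WT QSC pools had an SD of 0.45 and WT CSC pools one of 0.52, the latter larger than that of 99.2% of tested genes. Without the second arrays of 3 pools, described with Nr3c1, the difference was -1.88 (limma adjusted p = 0.00289). In the single pools it measured 10.53 in WT CSC at 28 days, 10.94 in TSC1 KO QSC, 10.62 and 9.93 in QSC and CSC of the Rptor KO, and 10.39 and 10.05 in QSC and CSC of the cMet KO. The 2 knockout CSC pools thus lay above all 3 WT CSC pools and below all 3 WT QSC pools. In order of level, WT QSC was highest (mean 11.16), followed by QSC of the TSC1 KO and of the Rptor KO, WT CSC at 28 days, QSC and CSC of the cMet KO, CSC of the Rptor KO and WT CSC at 2.5 days (mean 9.34). The last step, 0.59 ± 0.41, was the widest between neighbours in that order and did not pass the test (limma adjusted p = 0.464).

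Tsc22d3 encodes GILZ, a leucine zipper protein that carries out part of the anti-inflammatory action of glucocorticoids. It measured 9.59, 9.19 and 8.91 in WT QSC and 8.69, 8.59 and 8.51 in WT CSC at 2.5 days. The pools did not overlap, and Tsc22d3 fell by 0.63 ± 0.18, a signal 1.55-fold lower (limma adjusted p = 0.038). The call was lost in 7 of 17 alternative analyses, in 5 of which 1 WT pool was left out. Without WT CSC pool 3 the adjusted p was 0.133. The cMet KO CSC pool stood at 9.12, within the range of WT QSC, whereas the Rptor KO CSC pool stood at 8.42, below every WT pool. The other single pools measured 8.78 in WT CSC at 28 days, 9.25 in TSC1 KO QSC, 8.87 in Rptor KO QSC and 8.96 in cMet KO QSC.

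RefSeq lists 3 start regions for Tsc22d3. Only the farthest upstream holds the core hexamer that the glucocorticoid receptor recognises, AGAACA on either strand. Which form of the protein is made from that start was not examined. The sequence is that of GRCm38.p6, written 5′ to 3′ along the transcribed strand from 250 bases before to 50 after the start, with the hexamer in capitals, 185 bases before the start.
Tsc22d3, chrX:140600473-140600772, - strand: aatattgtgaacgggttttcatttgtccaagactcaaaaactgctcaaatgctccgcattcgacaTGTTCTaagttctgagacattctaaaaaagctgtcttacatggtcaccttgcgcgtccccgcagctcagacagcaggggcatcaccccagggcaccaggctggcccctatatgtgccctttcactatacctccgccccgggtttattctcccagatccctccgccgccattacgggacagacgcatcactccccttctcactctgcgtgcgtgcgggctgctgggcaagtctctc
The hexamer occurs in 19.0% of the 32851 regions of the same length in the RefSeq table. That is a share per region, whereas 3 regions were searched for Tsc22d3. A match describes letters and not a bound site.

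Klf9 encodes a Krüppel-like zinc finger factor that is a rapid glucocorticoid target in brain, skin and liver. It measured 12.34, 11.83 and 12.31 in WT QSC and 11.09, 11.72 and 11.78 in WT CSC at 2.5 days. WT CSC pool 1 was the lowest, and the nearest pools of the 2 groups were 0.05 apart. The difference was -0.63 ± 0.22 and did not pass the test (limma adjusted p = 0.0771). Without WT QSC pool 2 it was -0.80 with an adjusted p of 0.0407. Of the 6 single pools, 5 lay below the lowest WT QSC pool and cMet KO QSC lay within the WT QSC range. They measured 11.46 in WT CSC at 28 days, 11.72 in TSC1 KO QSC, 11.78 and 11.68 in QSC and CSC of the Rptor KO, and 11.97 and 11.69 in QSC and CSC of the cMet KO.

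The families of these 3 regulators did not move one way. Among 22 tested KLF, ZBTB and TSC22 relatives, 4 fell and 2 rose in WT CSC at 2.5 days, with a median difference of -0.27. Tsc22d1, the relative of Tsc22d3 first found as a target of TGF-beta, rose by 0.99 ± 0.17 (limma adjusted p = 0.0048). Zbtb18, a transcriptional repressor of the Zbtb16 family, rose by 0.77 ± 0.18 (limma adjusted p = 0.018). Zbtb20 fell by 0.58 ± 0.14 and Zbtb4 by 0.70 ± 0.17, also past the threshold.

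Nr3c1, the glucocorticoid receptor, measured 10.06, 10.03 and 9.54 in WT QSC and 9.37, 9.43 and 9.45 in WT CSC at 2.5 days. The WT CSC pools were close together (SD 0.04) and lay just below the lowest WT QSC pool, pool 3. The difference was -0.46 ± 0.16 (limma adjusted p = 0.0814), and without WT QSC pool 3 it was -0.63 with an adjusted p of 0.0157. The WT CSC pool at 28 days measured 10.19, above all WT QSC pools. It exceeded WT CSC at 2.5 days by 0.77 ± 0.23, which did not pass the test (limma adjusted p = 0.0729). TSC1 KO QSC measured 10.07, cMet KO QSC 10.11 and cMet KO CSC 10.04, while Rptor KO QSC measured 9.66 and Rptor KO CSC 9.47. In the 2 Rptor KO pools and WT CSC pool 1, the differences of Nr3c1, Zbtb16 and Pdk4 between arrays of the same pool lay outside the range of the other pools. For Nr3c1 the second arrays of these 3 pools read 0.31 to 0.55 lower than their first, against differences of -0.12 to 0.04 in the other 6 pools with 2 arrays. For Zbtb16 they read 0.19 to 0.36 higher, against -0.03 to 0.14, and for Pdk4 0.08 to 0.37 lower, against -0.05 to 0.17. Over all tested genes, the differences between second and first arrays of these 3 pools correlated with r of 0.621 to 0.687. Those of the other 33 pairs of pools had r of -0.358 to 0.258. Without the 3 second arrays, WT CSC at 2.5 days differed from WT QSC by -0.41 for Nr3c1 (limma adjusted p = 0.112).

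**Figure D2:**
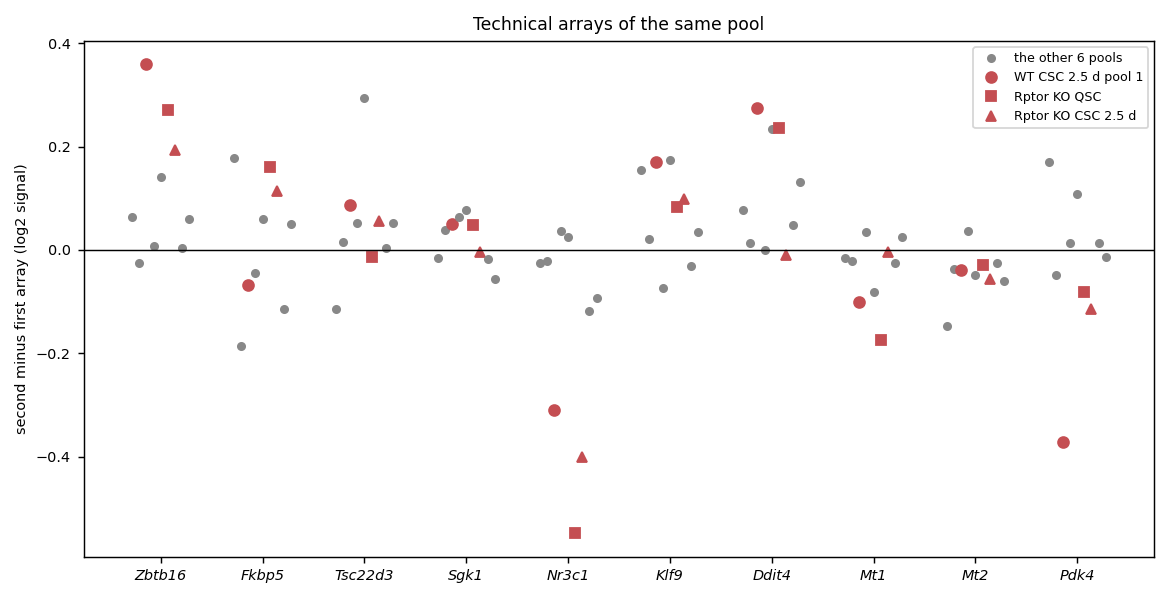
Second minus first array of the same pool in log2 signal (vertical axis) for each of the 10 genes (horizontal axis); red marks WT CSC pool 1 at 2.5 days, Rptor KO QSC and Rptor KO CSC, and grey the other 6 pools with 2 arrays. For Nr3c1 the 3 red points lie between -0.55 and -0.31 and the grey points between -0.12 and 0.04.

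Fkbp5 encodes FKBP51, a co-chaperone that lowers the receptor's affinity for hormone and so closes a feedback loop on it. It measured 9.19, 8.01 and 9.07 in WT QSC and 8.69, 8.48 and 8.40 in WT CSC at 2.5 days. WT QSC pool 2 read lowest of all 12 pools and the other 2 WT QSC pools highest, which gave an SD of 0.65, larger than that of 98.6% of tested genes. The difference was -0.23 ± 0.28 (limma adjusted p = 0.615). Without WT QSC pool 2 it was -0.60 with an adjusted p of 0.0244. The 6 single pools ranged from 8.15 in cMet KO CSC to 8.54 in Rptor KO QSC.

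Genes that set the hormone supply and the handling of the receptor moved in both directions: of 11 tested, 3 fell and 2 rose in WT CSC at 2.5 days. Hsd11b1, the enzyme that regenerates active glucocorticoid inside cells, measured 10.18, 9.96 and 9.33 in WT QSC and 8.39, 8.52 and 8.86 in WT CSC, and fell by 1.23 ± 0.22 (limma adjusted p = 0.00687). Nr3c2, the mineralocorticoid receptor, which also binds glucocorticoids, measured 9.40, 9.27 and 9.07 in WT QSC and 8.28, 8.23 and 8.04 in WT CSC, and fell by 1.06 ± 0.14 (limma adjusted p = 0.00161). In neither gene did the pools overlap. Nr3c2 was higher in WT CSC at 28 days than at 2.5 days by 1.23 ± 0.20 (limma adjusted p = 0.0081), and higher in cMet KO CSC than in WT CSC at 2.5 days by 1.17 ± 0.20 (limma adjusted p = 0.012). Dnaja1, an Hsp40 co-chaperone named here after its values were seen, fell by 0.76 ± 0.22. Fkbp4, which encodes FKBP52, the counterpart of FKBP51 that favours hormone binding, rose by 0.52 ± 0.13 (limma adjusted p = 0.0263), and Bag1, a co-chaperone that can restrain the receptor, rose by 0.57 ± 0.15. Among 10 tested nuclear receptor cofactors, the coactivator Ncoa1 fell by 0.64 ± 0.17 and Smarca4, an ATPase of chromatin remodelling complexes, rose by 0.70 ± 0.20.

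Sgk1 encodes a serum- and glucocorticoid-regulated kinase that controls ion transport and, in muscle, mass. It measured 11.08, 10.82 and 11.29 in WT QSC and 10.68, 11.04 and 11.13 in WT CSC at 2.5 days, with overlapping pools. The difference was -0.11 ± 0.17 (limma adjusted p = 0.693), and it turned to 0.02 without WT CSC pool 1. The lowest pools were Rptor KO QSC at 10.54 and Rptor KO CSC at 10.59, while WT CSC at 28 days stood at 11.14, TSC1 KO QSC at 11.08 and the cMet KO pools at 11.02 (QSC) and 10.76 (CSC). Rptor KO QSC was 0.52 ± 0.24 below WT QSC, which did not pass the test (limma adjusted p = 0.47). In the list of its relative Sgk3, upstream kinases and substrates, limma called none of the 7 tested genes, and 1 had an unadjusted p under 0.05.

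Among the 8 genes of the set with start regions in the RefSeq table, Sgk1 alone had one with a full palindrome of the receptor's response element, AGAACA and TGTTCT with 3 bases between them. RefSeq lists 6 start regions for Sgk1, and the palindrome lies 189 bases before the fifth of these starts and 965 bases before the last. The sequence below is from GRCm38.p6, 5′ to 3′, with hexamers in capitals.
Sgk1, chr10:21993640-21993939, + strand: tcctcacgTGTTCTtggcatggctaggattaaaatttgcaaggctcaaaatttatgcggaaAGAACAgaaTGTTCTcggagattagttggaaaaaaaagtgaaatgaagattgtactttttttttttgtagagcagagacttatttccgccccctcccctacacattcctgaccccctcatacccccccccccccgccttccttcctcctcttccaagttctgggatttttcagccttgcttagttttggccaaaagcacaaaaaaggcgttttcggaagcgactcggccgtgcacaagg
Only 3 of the 32851 regions, or 0.00913%, hold the palindrome, and the other two belong to Acnat2 and Gm35041. Start regions were listed for 8 of the 10 genes, 15 in all, and not for Zbtb16 and Nr3c1. Outside Sgk1 and Tsc22d3 none of the listed start regions of the 10 genes held the hexamer. The regions span 300 bases each, so elements farther away were not searched.

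Ddit4 encodes REDD1, a stress-induced inhibitor that acts on mTORC1 through the TSC1 and TSC2 complex. It measured 10.13, 9.35 and 9.55 in WT QSC and 9.03, 9.55 and 8.90 in WT CSC at 2.5 days. WT CSC pool 2 reached the level of WT QSC pool 3, so that the groups overlapped. The difference was -0.52 ± 0.23 (limma adjusted p = 0.165). The extremes over the series were both knockout pools: TSC1 KO QSC was highest at 10.33 and Rptor KO CSC lowest at 8.35. TSC1 KO QSC was 0.66 ± 0.33 above WT QSC (limma adjusted p = 0.598), and Rptor KO CSC was 0.80 ± 0.33 below WT CSC at 2.5 days (limma adjusted p = 0.225). Within the Rptor KO the CSC pool lay 0.92 ± 0.41 below the QSC pool at 9.28 (limma adjusted p = 0.985). None of these 3 differences passed the test. WT CSC at 28 days measured 9.36, and the cMet KO pools 9.56 (QSC) and 9.40 (CSC).

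Among the 12 tested genes of the Sestrins, the TSC complex and mTORC1 with the relative of Ddit4, 2 fell and 2 rose in WT CSC at 2.5 days. Ddit4l, which encodes REDD2, rose by 0.76 ± 0.17 (limma adjusted p = 0.0154), while Ddit4 itself did not pass the test. Deptor, an inhibitor bound to mTOR, fell by 0.90 ± 0.21, and Sesn1, a Sestrin that restrains mTORC1, fell by 0.80 ± 0.19. Mlst8, a subunit of both mTOR complexes, rose by 0.66 ± 0.19.

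Mt1 and Mt2 encode metallothioneins, small cysteine-rich proteins that bind zinc, copper and cadmium. They lie next to each other on chromosome 8 and are induced by metals through the factor MTF1 as well as by glucocorticoids. Mt1 measured 13.30, 12.78 and 13.17 in WT QSC and 12.54, 12.54 and 12.62 in WT CSC at 2.5 days. Its WT CSC pools were close together (SD 0.05) and all below WT QSC. It fell by 0.51 ± 0.16, a signal 1.43-fold lower, at the edge of the threshold (limma adjusted p = 0.0498). The call was lost in 9 of 17 alternative analyses, among them the one without the 3 second arrays (adjusted p = 0.052), and 5 of the 9 left out 1 WT pool. Mt1 measured 12.86 in WT CSC at 28 days, 13.35 in TSC1 KO QSC, 13.18 and 12.87 in QSC and CSC of the Rptor KO, and 12.62 and 12.83 in QSC and CSC of the cMet KO.

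Mt2 measured 13.69, 13.78 and 13.84 in WT QSC and 13.56, 13.64 and 13.65 in WT CSC at 2.5 days. The groups were 0.04 apart at their nearest pools, and the difference of -0.15 ± 0.12 did not pass the test (limma adjusted p = 0.422). All 6 single pools lay between 13.72 and 13.79. Mt2 had the narrowest range of the 10 genes and a mean brighter than 99.97% of genes, on arrays whose highest value was 14.54. Whether the probeset was near saturation was not tested, nor was cross-hybridisation between the 2 similar transcripts. Over the 12 pools the levels of Mt1 and Mt2 correlated with r = 0.613. Other metal-responsive genes gave little change: of 16 tested, limma called 1, the zinc transporter Slc30a4, which rose by 0.46 ± 0.13 (limma adjusted p = 0.0376). Mtf1 differed by 0.21 ± 0.23 and Mt3 by 0.05 ± 0.14, and neither passed the test.

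The start regions of both metallothioneins hold several copies of the core of the metal response element, searched as TGCACNC or TGCGCNC on both strands and shown in capitals. Sequences are from GRCm38.p6, 5′ to 3′, from 250 bases before to 50 after the start that RefSeq gives.
Mt1, chr8:94178839-94179138, + strand: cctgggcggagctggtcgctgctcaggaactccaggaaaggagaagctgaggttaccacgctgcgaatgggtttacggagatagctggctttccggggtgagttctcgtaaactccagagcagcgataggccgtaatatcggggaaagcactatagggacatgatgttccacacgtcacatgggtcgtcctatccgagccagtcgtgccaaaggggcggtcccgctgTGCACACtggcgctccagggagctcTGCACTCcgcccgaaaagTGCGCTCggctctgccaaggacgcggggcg
Mt2, chr8:94172368-94172667, + strand: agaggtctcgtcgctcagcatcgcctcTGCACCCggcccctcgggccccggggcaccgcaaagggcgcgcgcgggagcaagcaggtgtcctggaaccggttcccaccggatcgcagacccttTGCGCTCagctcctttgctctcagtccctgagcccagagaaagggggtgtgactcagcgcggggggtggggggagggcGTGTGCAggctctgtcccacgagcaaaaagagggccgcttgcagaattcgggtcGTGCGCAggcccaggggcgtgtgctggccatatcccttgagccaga
Mt1 has 3 matches and Mt2 has 4. At least 1 match occurs in 25.7% of the 32851 regions and 4 or more in 0.517%. The hexamer of the glucocorticoid receptor was found in neither window, and this says only that those letters are not within these bases.

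Pdk4 encodes pyruvate dehydrogenase kinase 4, which switches off the entry of pyruvate into the citric acid cycle and rises with fasting and glucocorticoids in muscle. It measured 11.58, 11.37 and 11.57 in WT QSC and 11.15, 11.13 and 11.03 in WT CSC at 2.5 days. The groups did not overlap and both were tight, with SDs of 0.12 and 0.06. The difference was -0.40 ± 0.13 (limma adjusted p = 0.0555), and without WT QSC pool 2 it was -0.47 with an adjusted p of 0.0362. Without the second arrays of 3 pools, described with Nr3c1, it was -0.34 (limma adjusted p = 0.112). Of the single pools only Rptor KO CSC, at 11.07, lay at the level of WT CSC at 2.5 days. The others measured 11.59 in WT CSC at 28 days, 11.51 in TSC1 KO QSC, 11.55 in Rptor KO QSC, and 11.44 and 11.40 in QSC and CSC of the cMet KO, all at the level of WT QSC.

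Of 11 other tested genes of the pyruvate dehydrogenase system, 3 rose and none fell in WT CSC at 2.5 days. Pdk3, another kinase of the complex, rose by 1.01 ± 0.15 (limma adjusted p = 0.00246). Dlat, its E2 subunit, rose by 0.92 ± 0.14 (limma adjusted p = 0.00288), and Pdhx, which anchors the E3 subunit, rose by 0.57 ± 0.14. The kinases Pdk1 and Pdk2 had differences below 0, like Pdk4, at -0.40 ± 0.16 and -0.74 ± 0.29, and did not pass the test.

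The list of 30 other genes known to be induced by glucocorticoids in 1 or more tissues had 28 tested members, of which 11 fell and 1 rose in WT CSC at 2.5 days. Their median difference was -0.54, against -0.49 for the 10 genes and -0.05 for all tested genes, of which 7.36% were called lower. A median of this size was not particular to glucocorticoid-induced genes. It was -0.52 for a list of satellite cell markers and -0.84 for pericyte markers, while mature fibre markers had 0.52. Zfp36, which destabilises inflammatory messenger RNAs, fell by 1.17 ± 0.14 (limma adjusted p = 0.00085). Cebpd, a transcription factor of the C/EBP family, fell by 1.10 ± 0.14 (limma adjusted p = 0.0013), and Txnip, which restrains glucose uptake, fell by 1.30 ± 0.18 (limma adjusted p = 0.0019). Crispld2, a secreted protein, fell by 1.02 ± 0.20. Dusp1, a phosphatase of MAP kinases, measured 13.26, 12.93 and 12.99 in WT QSC and 11.98, 12.33 and 12.48 in WT CSC, with no overlap. The 1 gene that rose was Anxa1, an anti-inflammatory annexin named here after its values were seen, by 0.90 ± 0.20. Zfp36, Txnip, Cebpd and Dusp1 also respond to stress or growth signals, as do several of the 10 genes.

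**Figure D3:**
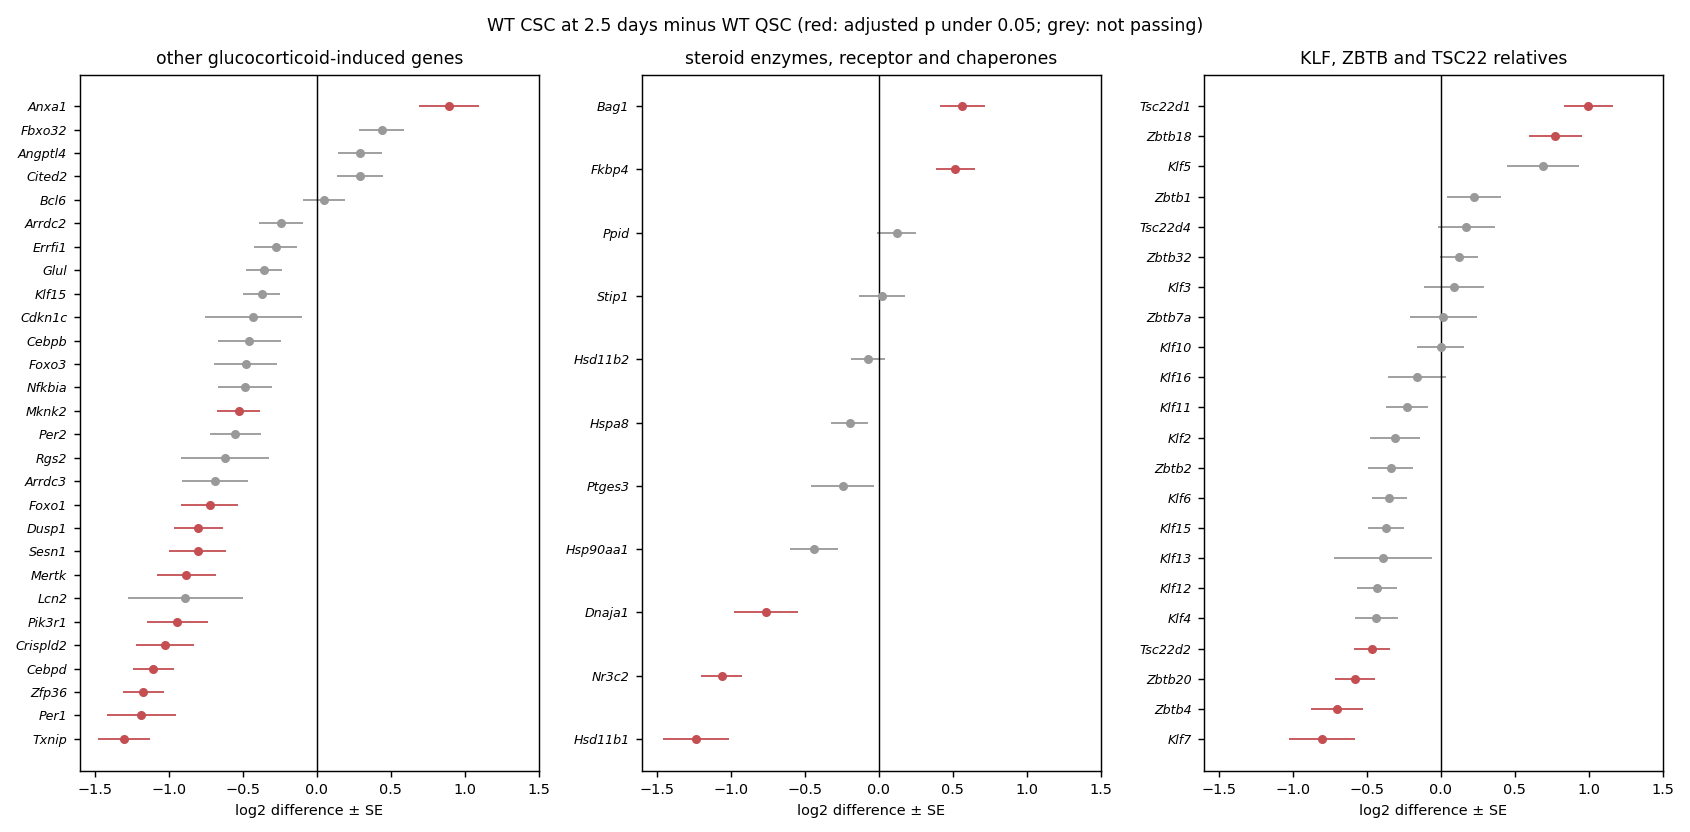
Difference in log2 signal between WT CSC at 2.5 days and WT QSC (horizontal axes) with its SE for other glucocorticoid-induced genes, for steroid enzymes, Nr3c2 and chaperones, and for relatives of Klf9, Zbtb16 and Tsc22d3; red marks an adjusted p under the threshold and grey the rest. In the first panel 11 genes are red below 0 and 1, Anxa1, above 0.

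At 28 days after injury limma called none of the 10 genes against WT QSC, and none of all tested genes (0%), of which 637 had an unadjusted p under 0.05. Of the 10, 1 had an unadjusted p under 0.05, Klf9 at -0.70 ± 0.31. Their median difference was -0.27, with Zbtb16 at -0.63 ± 0.41. Against WT CSC at 2.5 days, 8.38% of all tested genes were called and none of the 10 was. Of the 10, 3 had an unadjusted p under 0.05, as did 24.2% of all tested genes. These 3 were Zbtb16 at 1.20 ± 0.41 (limma adjusted p = 0.109), Nr3c1 at 0.77 ± 0.23 and Pdk4 at 0.48 ± 0.18. Both comparisons use the same single pool at 28 days, and each shares WT pools with the comparison at 2.5 days. Among the other glucocorticoid-induced genes, 5 were higher at 28 than at 2.5 days and 1 was lower. Zfp36 was higher by 1.39 ± 0.19, Txnip by 1.30 ± 0.25 and Pik3r1, a regulatory subunit of PI3-kinase, by 1.40 ± 0.29.

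In the noninjured knockout pools limma called none of the 10 genes against WT QSC, where it called 0.0143% of all tested genes for TSC1 KO, 0.122% for Rptor KO and 0% for cMet KO. None of the 10 had an unadjusted p under 0.05 in any of the 3 comparisons, which share the WT QSC pools. Of all tested genes, 8.82% had one for TSC1 KO, 11.3% for Rptor KO and 1.33%, or 185 genes, for cMet KO. The differences of the 10 genes ran from -0.44 to 0.66 for TSC1 KO, from -0.54 to 0.09 for Rptor KO and from -0.77 to 0.23 for cMet KO. Zbtb16 was -0.22 ± 0.41, -0.54 ± 0.41 and -0.77 ± 0.41 in them, each time within 2 SE of 0.

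After injury of the opposite limb, none of the 10 genes was called between CSC and QSC within the Rptor KO, where 0.258% of all tested genes were, or within the cMet KO, where 0% were and 75 genes had an unadjusted p under 0.05. The median difference of the 10 genes was -0.26 in the Rptor KO and -0.07 in the cMet KO. In the Rptor KO 1 of the 10 genes, Ddit4, had an unadjusted p under 0.05, as did 5.06% of all tested genes. None of the 10 had one in the cMet KO. Each of these comparisons sets 1 pool against 1, with a median SE of 0.267. The SE for Tsc22d3 was 0.31 and that for Mt1 0.27, against differences of -0.63 and -0.51 in WT. Zbtb16 differed by -0.70 ± 0.50 in the Rptor KO and by -0.33 ± 0.50 in the cMet KO. The difference between these responses and that of WT was tested directly. It was 1.13 ± 0.57 for the Rptor KO (limma adjusted p = 1) and 1.49 ± 0.57 for the cMet KO (limma adjusted p = 0.437), and neither passed. No gene's response was called different from that of WT in the Rptor KO (0%), where 620 genes but none of the 10 had an unadjusted p under 0.05, and 0.158% of genes were called in the cMet KO. In the cMet KO, 2 of the 10 genes had an unadjusted p under 0.05 for this difference, as did 9.52% of all tested genes. These 2 were Zbtb16 and Mt1, the latter at 0.73 ± 0.31 (limma adjusted p = 0.495).

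**Figure D4:**
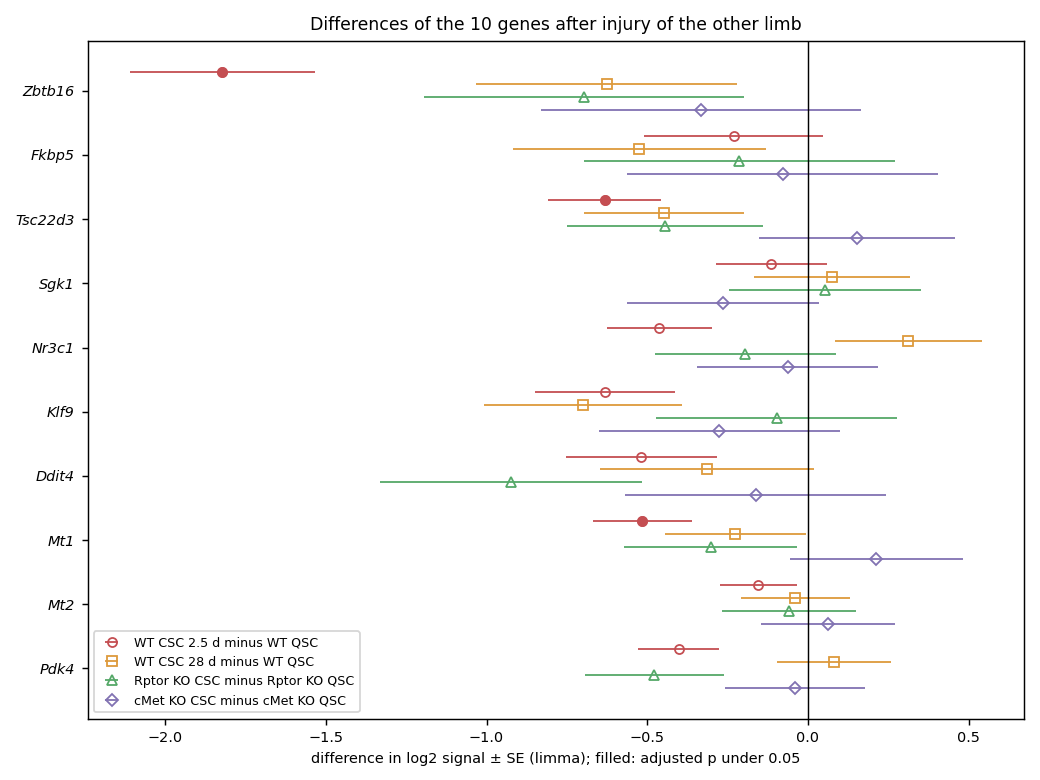
Difference in log2 signal ± SE (horizontal axis) of each of the 10 genes (vertical axis) for WT CSC at 2.5 and at 28 days against WT QSC and for CSC against QSC within the Rptor KO and the cMet KO; filled symbols passed the adjusted threshold. The 3 filled symbols are Zbtb16 at -1.82, Tsc22d3 at -0.63 and Mt1 at -0.51, all for WT at 2.5 days.

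CSC pools of the knockouts were also set against WT CSC at 2.5 days. For the Rptor KO 3.90% of all tested genes were called and for the cMet KO 6.74%, and none of the 10 was in either. Of the 10, Ddit4 had an unadjusted p under 0.05 in the former, as did 19.8% of all tested genes. Nr3c1 had one in the latter, at 0.63 ± 0.23 (limma adjusted p = 0.137), as did 23.4% of all tested genes. Among the other glucocorticoid-induced genes none was called for the Rptor KO, with 5 at an unadjusted p under 0.05, and 4 were higher in cMet KO CSC. Txnip was higher there by 1.32 ± 0.25, Zfp36 by 0.98 ± 0.19 and Per2, a clock gene, by 1.03 ± 0.25. The comparisons of cMet KO CSC with WT CSC and of its response with that of WT share those pools. In both, the strain differs along with the genotype.

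Immediate early genes and markers of satellite cells and of other cell types also differed between the pools, not all in the same direction. Their part in the values of the 10 genes was not tested. Satellite cell markers were present in every pool, with a mean level of the 10 markers of 11.37 to 11.76 in WT QSC and 10.87 to 11.04 in WT CSC at 2.5 days, where 4 of 10 fell, Pax7 by 1.07 ± 0.25. The list of immediate early genes also holds the heat shock genes Hspa1a and Dnajb1. Of its 19 tested genes, 18 fell in WT CSC at 2.5 days, these 2 among them. Their mean level was 11.76 to 12.33 in WT QSC, 10.89 to 10.94 in WT CSC, 11.44 in Rptor KO CSC and 11.67 in cMet KO CSC. Satellite cell markers stood at 11.06 in Rptor KO CSC and 11.30 in cMet KO CSC. Both means placed the CSC pools of the 2 knockouts between WT CSC and WT QSC, for the satellite cell markers in Rptor KO CSC only just. Zbtb16 lay between them too, but the 10 genes as a set did not in both knockouts. Their mean was 10.445 in Rptor KO CSC, below the 10.457 to 10.495 of WT CSC. In cMet KO CSC it was 10.722, between WT CSC and the 10.790 to 11.258 of WT QSC. Over the 12 pools Zbtb16 correlated with the mean of the immediate early genes at r = 0.888 and with that of the satellite cell markers at r = 0.799. Tsc22d3 gave r = 0.777 and r = 0.854 with these 2 means, Nr3c1 r = 0.751 and r = 0.815, and Ddit4 r = 0.611 and r = 0.81. Pdk4 gave r = 0.883 and r = 0.761, Mt1 r = 0.832 and r = 0.718, and Mt2 r = 0.667 and r = 0.514. Klf9 gave r = 0.471 and r = 0.533, and Sgk1 r = 0.076 and r = 0.409. Fkbp5 gave r = 0.126 and r = 0.093, the lowest with the satellite cell markers. With pericyte markers r ran from 0.24 (Fkbp5) to 0.781 (Tsc22d3), and with fibro-adipogenic markers from 0.115 (Fkbp5) to 0.728 (Klf9). With endothelial markers it ran from 0.045 (Sgk1) to 0.73 (Mt2), and with mature fibre markers from -0.57 (Mt2) to 0.45 (Fkbp5). The points share the groups, the arrays and their normalisation.

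Endothelial markers fell as well, 11 of 14 in WT CSC at 2.5 days, with mean levels of 8.82 to 9.44 in WT QSC, 7.73 to 8.17 in WT CSC, 8.53 in Rptor KO CSC and 9.81 in cMet KO CSC. Pericyte markers fell in 6 of 10 cases and had mean levels of 9.13 to 9.74 in WT QSC and 8.66 to 8.81 in WT CSC. Fibro-adipogenic markers fell in 5 of 10 cases, with mean levels of 9.58 to 9.95 in WT QSC and 8.95 to 9.35 in WT CSC. Mature fibre markers rose in 5 of 12 cases, from 7.70 to 8.71 in WT QSC to 8.89 to 9.29 in WT CSC. Macrophage markers were at 7.54 to 8.03 in WT QSC and 7.68 to 7.74 in WT CSC, with 1 of 11 lower, and reached 9.41 in Rptor KO CSC and 8.81 in cMet KO CSC.

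**Figure D5:**
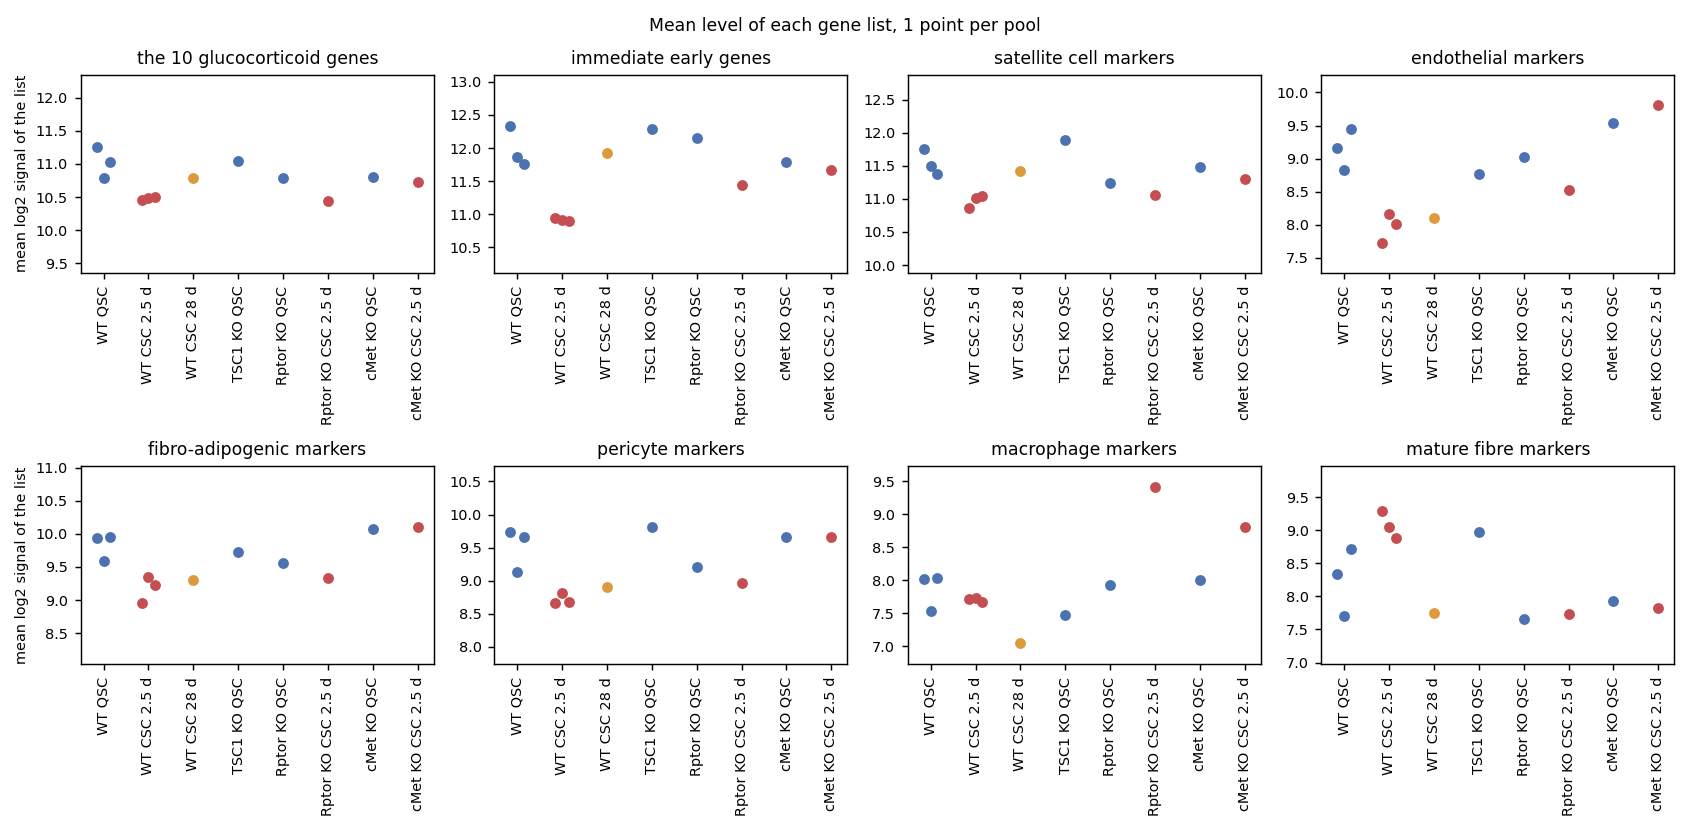
Mean log2 signal of each gene list (vertical axes, each spanning the same number of log2 units) in the 8 groups (horizontal axes), with 1 point per pool and colours as in the plot of the 10 genes by pool. The immediate early genes stand at 10.89 to 10.94 in the WT CSC pools at 2.5 days and at 11.76 to 12.33 in the WT QSC pools.

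The 10 genes did not vary as 1 block. Over the 12 pools the highest correlations among them were Zbtb16 with Pdk4 (r = 0.833), Zbtb16 with Mt1 (r = 0.811) and Tsc22d3 with Ddit4 (r = 0.807). Fkbp5 and Nr3c1 gave the lowest, r = -0.302. These are descriptions over pools that share their groups and normalisation. By the same measure, the genes most like Zbtb16 over the 12 pools were Ror1 (r = 0.942), Aatk (r = 0.934) and Tent5b (r = 0.932). Those most like Nr3c1 were Aldh1a1 (r = 0.97), Ssbp2 (r = 0.97) and Mfsd8 (r = 0.968), and those most like Tsc22d3 were Sertad3 (r = 0.923), Emd (r = 0.923) and Rhoh (r = 0.922). For Mt1 they were Slc9a3r1 (r = 0.966), Fosl2 (r = 0.939) and Mob3c (r = 0.927), Fosl2 being one of the immediate early genes. For Pdk4 they were Sde2 (r = 0.973), Atg16l2 (r = 0.949) and Clmn (r = 0.947).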

How the data were processed

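Gene expression was measured on Affymetrix Mouse Gene 1.0 ST arrays in 21 samples. Per the submitters' processing notes, the authors ran RMA in Affymetrix Expression Console, and the deposited values are the resulting log2 signals of probesets. The sources used here do not state versions, library files, the genome build or which arrays were normalised together. Array medians ran from 7.03 to 7.21. RMA aligns the arrays' distributions, so a shift shared by most genes cannot be seen.

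The platform table pairs 21789 of 35556 probesets with 1 symbol and 1621 with several, and 12146 are not listed in it. Each gene was represented by its brightest such probeset, arrays of a pool were averaged, and only genes whose mean reached the 30th percentile (log2 6.45) were tested. Group means over all 12 pools were fitted in R 4.3.3 with limma 3.58.1 (lmFit, eBayes), a step tested on simulated data. Only the 6 WT pools of QSC and of CSC at 2.5 days give residual degrees of freedom, 4 in all, to which the prior adds 5.01. Nothing says whether mice of separate pools were handled separately, and p measures only the spread between these pools. Start regions were matched by symbol to RefSeq (GRCm38.p6).

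The 10 genes, the lists and the named-gene rule were chosen with earlier results of these data known. The rule covers the 10 genes, their relatives, the targeted genes, and Dusp1 and Per1 as references. Per list it takes at most 4 called genes with the smallest p in WT CSC at 2.5 days and 3 per other comparison. It also covers the 3 genes most like each of the 10. Not every gene under the rule is named in the text. The most alike genes are given only for Zbtb16, Nr3c1, Tsc22d3, Mt1 and Pdk4.

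Alternatives were repeated quantile normalisation, centring on medians, 2 other filters, the mean of a gene's probesets, eBayes with trend and robust options, the pool as a random block, first arrays alone, the 6 WT pools alone, the replicate number as a block, leaving out each WT pool, and, chosen after seeing the data, leaving out 3 second arrays. Deviations of same-numbered WT QSC and WT CSC pools correlated at 0.319 for pool 1, but at -0.0331 and -0.0342 for pools 2 and 3, so the numbers were not taken to pair the pools.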

Additional observations from a re-analysis of the deposited data

How the results depend on the processing

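The fall of Zbtb16 in WT CSC at 2.5 days was called in all 17 alternatives, with differences of -1.54 to -2.04 and limma adjusted p of 6.04e-06 to 0.0162. The number of the 10 genes called in that comparison was 3, and it was 1 after centring arrays on their medians, 1 with no filter, 6 with the pool as a random block and 1 to 5 when 1 WT pool was left out. With the replicate block it was 3, with the same genes (adjusted p of Zbtb16 0.000514, Tsc22d3 0.0231 and Mt1 0.0464). The numbers pair the pools by number alone, and of the 3 WT CSC pools only pool 1 correlated best with its own number. The random block treats arrays of a pool as correlated and gives limma more degrees of freedom. Between WT CSC at 28 and 2.5 days the number called was 0, but 2 with the random block (Zbtb16 and Nr3c1) and 0 to 1 with 1 WT pool left out (Nr3c1 without WT QSC pool 3, adjusted p = 0.0285). It stayed at 0 in the other 10 comparisons under the 15 alternatives run for each. All 10 differences at 2.5 days stayed below 0 under every alternative but the one without WT CSC pool 1, where Sgk1 was at 0.0226. Its lowest difference with 1 WT pool left out was -0.234. The number with no overlap of WT pools was 7, and 6 after centring on medians. Zbtb16 in TSC1 KO QSC turned from -0.22 to 0.015 without WT QSC pool 1, and was at lowest -0.431 without WT QSC pool 2.

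Counts over all genes moved more. For WT CSC at 2.5 days against WT QSC 2510 genes were called, and 1194 to 3606 over the alternatives. The counts were 0 and 0 to 52 for WT CSC at 28 days against WT QSC, 1169 and 453 to 2354 for 28 against 2.5 days, 2 and 1 to 231 for TSC1 KO QSC, 17 and 2 to 235 for Rptor KO QSC, and 0 and 0 to 2 for cMet KO QSC. Within the knockouts they were 36 and 15 to 112 for Rptor and 0 and 0 to 2 for cMet. For CSC pools against WT CSC they were 544 and 25 to 1378 for Rptor KO and 941 and 314 to 2173 for cMet KO. For responses against that of WT they were 0 and 0 to 49 for Rptor KO and 22 and 0 to 357 for cMet KO. The cause of these shifts was not tested. The levels rest on 12 pools, 6 of them the only one of their group.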

Other observations

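Per1, a clock gene that glucocorticoids also induce, measured 11.29, 10.34 and 10.84 in WT QSC and 9.48, 9.91 and 9.52 in WT CSC at 2.5 days. In the single pools it measured 10.23 in WT CSC at 28 days, 11.22 in TSC1 KO QSC, 10.63 and 9.51 in QSC and CSC of the Rptor KO, and 10.14 and 9.87 in QSC and CSC of the cMet KO. Both knockout CSC pools lay within the range of WT CSC at 2.5 days, unlike those of Zbtb16.

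Xist stood at 5.05 to 5.75 in all 12 pools, and the Y-linked Eif2s3y at 8.96 to 10.37.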
